A study of Mus musculus with 33 samples.

Results

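The spleen of untreated DEREG mice was compared between its CD4+ T cells and the rest of its leukocytes, the CD45+CD4- cells. Both subsets were profiled by bulk RNA-Seq with 3 libraries each, which are 6 of the 33 libraries and 2 of the 11 cell subsets of a study of transplant tolerance. They were taken by their labels, and the comparison covers all genes. DEREG mice, on the C57BL/6 background, carry the diphtheria toxin receptor and enhanced GFP as a transgene under the Foxp3 promoter, and the mice of both groups used here have it. The naive mice had received no transplant, no antibody and no other treatment. The CD4+ T cells were sorted as live CD4+GFP- cells, so that GFP+ regulatory T cells (Tregs) were gated out. The CD45+CD4- cells were live CD45+ cells sorted after CD4+ cells had been removed with microbeads, and they are a mixture of cell types. The tolerant mice used for comparison had been given porcine neonatal islet cell clusters with several doses of 500 µg MR1, an antibody against CD154, and 1 dose of 500 µg CTLA4-Fc, and their spleens were sorted in the same way at day 100. The mice used for spleen samples were male, and their age is not given in the sources used here. All naive spleen samples came from 3 mice, so both naive subsets are from the same animals, while each tolerant sample was a pool of several mice. Whether each naive library was 1 mouse or a pool is not stated clearly. The p-values rest on a spread between libraries that was estimated within subsets over all 33 libraries, not these 6 alone. Part of this spread may be technical.

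T and B lymphocytes each read antigen with a clonal receptor that has no signalling tail of its own. In T cells the antigen receptor (TCR) is carried by the CD3 chains and the zeta chain Cd247, and Lck and Zap70 phosphorylate them. In B cells surface immunoglobulin is carried by Cd79a and Cd79b, with Lyn, Blk and Syk in the place of Lck and Zap70. CD4 binds MHC class II, the molecules by which B cells, dendritic cells and macrophages present peptides to helper T cells. The spleen holds both lymphocyte lineages together with CD8 T cells, NK cells, neutrophils, monocytes and macrophages, all of which carry CD45 (Ptprc).

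Values below are CPM (counts scaled to a common library size) with TMM-scaled library sizes, listed in the order of replicates 1, 2 and 3. Where values of both subsets are set against each other, those of the CD45+CD4- libraries come first. Cd4 itself (chr6:124864692-124888221, GRCm38) was read at 11.3, 33.6 and 26.7 CPM in the CD45+CD4- libraries and at 268, 426 and 229.6 CPM in the CD4+ libraries. The groups did not overlap (log2 fold change 3.69 ± 0.73 SE, adjusted p = 2.30e-04), and the mean level of Cd4 left in the CD45+CD4- cells was 7.75% of that in the CD4+ cells. Ptprc was at 3421, 3695 and 4007 CPM in the CD45+CD4- libraries and 4709, 3852 and 5009.9 CPM in the CD4+ libraries, and no difference was called (adjusted p = 0.691). The Treg marker Foxp3 was at 8.2, 0.317 and 0.392 CPM and EGFP at 0, 0 and 0 CPM in the CD4+ libraries, against means of 393 ± 65.1 and 55.4 ± 27 CPM (SD, n = 3) in the naive splenic Tregs of the same series.

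The 6 libraries held 2550698 to 3504081 counts on genes, and a count of 3 in a library, the limit of detection used here, is 0.917 to 1.18 CPM. CD4+ replicate 2 stood apart in complexity. It had at least 1 count for 20097 genes, where the other 2 CD4+ libraries had 13611 and 14716, while its number of genes with at least 10 counts, 8400, was the lowest of the 6 libraries. Some of its reads lay on genes of other cells: Blnk was at 0.656, 75.7 and 0 CPM, Tcf4 at 10.2, 173 and 11.4 CPM and Siglech, a marker of plasmacytoid dendritic cells, at 0, 63 and 0 CPM in the 3 CD4+ libraries. CD4+ replicate 1 likewise held Cd79b (44.3, 0.317 and 0 CPM) and Hbb-bs (177, 0 and 0 CPM). Their part in the results was not tested, and counts without each library are given below.

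Of 25347 genes tested, 96 were higher and 167 lower in CD4+ T cells than in CD45+CD4- cells at an adjusted p under 0.05 (edgeR's quasi-likelihood test, Benjamini-Hochberg over all genes tested). These are 0.379% and 0.659% of the genes tested, and 2441 genes had an unadjusted p under 0.05. The lowest and highest library of the groups did not overlap for 84 of the 96 and 160 of the 167, beside 5.74% (CD4+ above) and 7.13% (CD4+ below) of all genes tested. The directions differed in shape. The genes higher in CD4+ T cells had a median log2 fold change of 1.78 and were still read at a median of 216 CPM in the CD45+CD4- cells, and 6 of the 96 were at the limit of detection in every CD45+CD4- library. The genes lower in CD4+ T cells had a median log2 fold change of -5.55 with genes at the limit of detection set to their lower bound (-7.29 as fitted) and a median of 0.658 CPM in the CD4+ cells, where 83 of the 167 were at the limit of detection in every library. In bulk samples, fewer cells of a type and less RNA per cell cannot be told apart. Scaling by RLE in place of TMM moved the median gene by -0.10 on the log2 scale. The number of genes called moved with single libraries. Without CD45+CD4- replicate 1 or replicate 2, 52 and 50 genes were higher, without CD4+ replicate 3, 62 were higher and 95 lower, and without CD4+ replicate 1, 107 were lower. Without CD4+ replicate 2, 97 were higher and 120 lower.

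**Figure D1:**
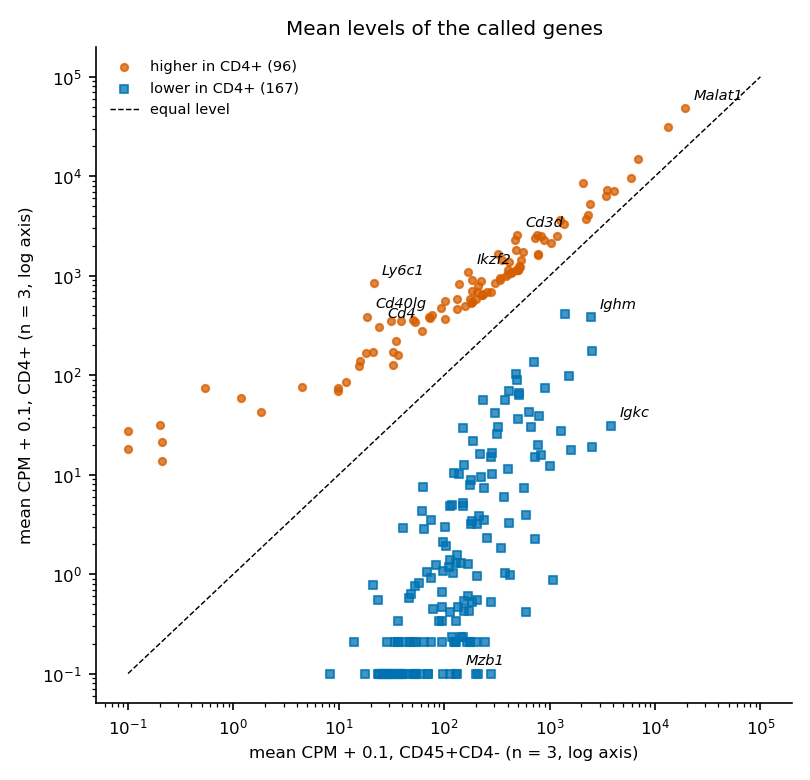
Mean CPM (plus 0.1, log axes) of the 96 genes higher (circles) and the 167 genes lower (squares) in CD4+ T cells, with CD45+CD4- cells on the x axis and CD4+ T cells on the y axis, each point the mean of 3 libraries. Most of the genes higher in CD4+ T cells lie close above the line of equal level, and some, such as Ly6c1 and Cd40lg, lie far above it. Many of the genes lower there sit at the bottom of the plot, near 0 CPM in CD4+ T cells.

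All 7 genes of the TCR complex were higher in every CD4+ library than in any CD45+CD4- library, as were 5.74% of all genes tested. Of the 7, 5 were called, beside 0.379% called higher over all genes tested. These were the CD3 chains Cd3d and Cd3g and the constant genes Trac, Trbc1 and Trbc2. Cd3d was at 319.6, 195 and 964 CPM in the CD45+CD4- libraries and 2527, 2525 and 2646 CPM in the CD4+ libraries (log2 fold change 2.38 ± 0.30 SE, adjusted p = 7.76e-11). CD45+CD4- replicate 3 held more Cd3d than the other 2 libraries of its group together, and it was also the highest of its group for Cd3g. Cd3g was at 178, 216 and 585 against 1589.7, 1247 and 2095 CPM (log2 fold change 2.33 ± 0.32 SE, adjusted p = 2.81e-09). Trac, the constant gene of the TCR alpha chain, was at 65.7, 186 and 162 against 934, 464 and 1079.8 CPM (log2 fold change 2.58 ± 0.38 SE, adjusted p = 4.46e-08). The beta constant genes Trbc1 and Trbc2 had smaller log2 fold changes of 1.62 ± 0.29 and 1.42 ± 0.29 SE, with adjusted p of 2.39e-05 and 6.33e-04, and the likelihood ratio test called neither. They are near-identical copies, and reads that fit both are not counted, so their separate levels are uncertain. Cd3e (132, 132 and 185 against 378, 376 and 489 CPM) and Cd247 (54.7, 92.6 and 95.9 against 155, 278 and 351 CPM) did not pass the test (adjusted p = 0.127 and 0.198). The mean level left in the CD45+CD4- cells ranged from 16.7% of the CD4+ level for Trac to 37.4% for Trbc2 among the called genes of the complex, where that of Cd4 was 7.75%. The median log2 fold change of the 7 was 1.69, beside 0 over all genes tested. Per kb of exon, the mean level in CD4+ T cells was 1414 CPM for Cd3d, 503 for Cd3g, 102 for Cd3e and 49 for Cd247.

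Cd3d and Cd3g lie next to each other on chromosome 9 in opposite directions (chr9:44981786-44987339 and chr9:44969572-44980431), and their RefSeq promoter windows (GRCm38.p6, 250 bases before to 50 after the start) are shown because this pair of CD3 genes rose together. The E box CAGGTG, a site of E proteins on which both lymphocyte lineages depend, is in capitals on either strand.
Cd3d, chr9:44981536-44981835, plus strand: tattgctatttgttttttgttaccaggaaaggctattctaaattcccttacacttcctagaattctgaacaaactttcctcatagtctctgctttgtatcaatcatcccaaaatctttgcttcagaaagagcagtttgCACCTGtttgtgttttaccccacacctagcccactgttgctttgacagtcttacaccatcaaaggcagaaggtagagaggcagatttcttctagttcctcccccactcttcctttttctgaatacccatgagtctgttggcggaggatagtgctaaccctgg
Cd3g, chr9:44980382-44980681, minus strand: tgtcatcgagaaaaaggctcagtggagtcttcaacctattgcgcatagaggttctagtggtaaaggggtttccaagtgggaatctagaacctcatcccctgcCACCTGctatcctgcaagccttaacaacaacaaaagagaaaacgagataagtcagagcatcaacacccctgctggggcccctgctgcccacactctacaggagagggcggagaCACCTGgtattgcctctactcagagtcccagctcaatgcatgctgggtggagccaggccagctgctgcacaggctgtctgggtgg
Cd3d has 1 match, which starts 112 bases before the start site, and Cd3g has 2, at 148 and 35 bases before it. All 4 CD3 and zeta genes with a window held the E box, but it is also in 20.2% of all 32851 promoter windows of this length, in 23.3% of the 73 windows of genes higher and in 23.6% of the 140 windows of genes lower in CD4+ T cells. The 3 shares lie close to each other.

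Of 15 kinases and adaptors that act below the TCR, 4 were higher in CD4+ T cells and none lower, beside 0.379% higher over all genes tested. For 12 of the 15 the groups did not overlap, beside 5.74% of all genes tested with CD4+ above. Lck, the kinase bound to the tail of CD4, was at 971, 725 and 629 CPM in the CD45+CD4- libraries and 1819.7, 1526 and 1466 CPM in the CD4+ libraries (log2 fold change 1.05 ± 0.26 SE, adjusted p = 0.0129), a call that was lost without CD45+CD4- replicate 2 or 3 or CD4+ replicate 1 (adjusted p up to 0.141). The adaptors were further apart. Trat1, which binds the TCR complex, was at 37.6, 40.1 and 39.6 against 347, 314 and 393 CPM (log2 fold change 3.17 ± 0.56 SE, adjusted p = 2.01e-05). Skap1 was at 165, 288 and 180.3 against 534, 990.0 and 839.6 CPM (log2 fold change 1.90 ± 0.41 SE, adjusted p = 0.00117), and Sh2d1a, the adaptor of SLAM receptors, at 39.1, 42.4 and 197 against 464, 496 and 458 CPM (log2 fold change 2.35 ± 0.43 SE, adjusted p = 3.04e-05). Zap70 was low in both subsets (99.9, 54.1 and 73.1 against 129.6, 163 and 97.6 CPM, adjusted p = 0.742), and the groups overlapped. Txk, Lat, Themis, Prkcq and Rasgrp1 had log2 fold changes between 1.17 ± 0.38 SE (Lat) and 1.84 ± 0.65 SE (Themis) that did not pass the test. With the 12 libraries of the Foxp3- subsets alone in the fit, or with the 24 of spleen and graft, 10 of the 15 were higher, with the 6 compared libraries alone or with DESeq2 7, and with the likelihood ratio test 2. Lck and Skap1 were not called by the likelihood ratio test.

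Of 14 T cell coreceptors and surface molecules, 6 were higher in CD4+ T cells: Cd4, Cd2, Cd28, Icos, Cd40lg and Slamf6. Cd40lg, the ligand by which helper T cells engage CD40 on B cells and dendritic cells, was at 14.7, 21.2 and 19.6 CPM in the CD45+CD4- libraries and 427, 297 and 443 CPM in the CD4+ libraries. No CD4+ library came near the CD45+CD4- range, the means were 21-fold apart, and the test gave a log2 fold change 4.39 ± 0.78 SE, adjusted p = 1.85e-05. Its receptor Cd40 went the other way, from 99.3, 94.6 and 95.9 CPM in the CD45+CD4- libraries to 2.3, 0.633 and 0 CPM in the CD4+ libraries (log2 fold change -6.55 ± 1.64 SE, adjusted p = 0.0132), a call lost without CD4+ replicate 2 or 3 (adjusted p up to 0.126). The costimulatory receptor Cd28 was at 173, 308 and 183 against 863, 817 and 949 CPM (log2 fold change 1.99 ± 0.41 SE, adjusted p = 6.46e-04), and the related receptor Icos at 62.9, 47 and 111 against 472, 143 and 512 CPM (log2 fold change 2.35 ± 0.42 SE, adjusted p = 2.39e-05). Cd2, an adhesion receptor, was at 75.5, 95.9 and 132 against 801, 172 and 690.3 CPM (log2 fold change 2.45 ± 0.44 SE, adjusted p = 2.39e-05), CD4+ replicate 2 being the lowest of its group for both Icos and Cd2. Slamf6 had a log2 fold change of 1.52 ± 0.38 SE (adjusted p = 0.0115), and its call was lost without CD45+CD4- replicate 2 or 3 (adjusted p up to 0.216). Cd5, Cd6, Cd226 and Ly9 overlapped between the subsets, and Thy1 (198, 159 and 164 against 278, 244 and 378 CPM) was not called (adjusted p = 0.666). The likelihood ratio test called 3 of the 14, and Cd2, Cd28 and Slamf6 were not among them.

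**Figure D2:**
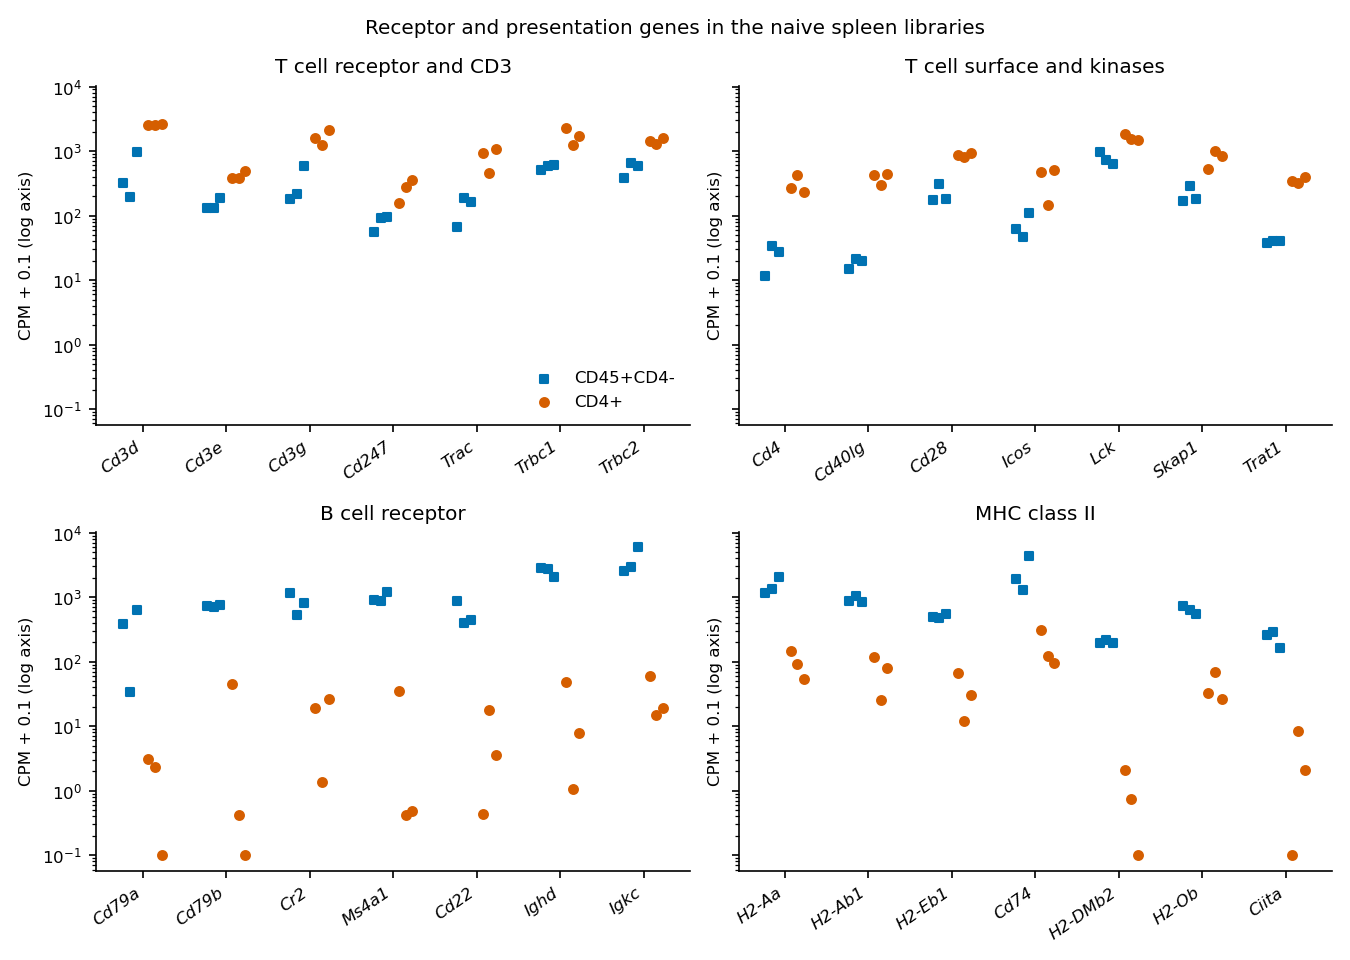
CPM plus 0.1 (log axis) in each CD45+CD4- library (squares) and each CD4+ library (circles) of naive spleen, in the order of replicates 1 to 3 from left to right, for genes of the T cell receptor, T cell surface and kinases, B cell receptor and MHC class II. T cell genes stay at 10 CPM or more in the CD45+CD4- libraries, while B cell receptor genes fall to between 0 and 59.1 CPM in the CD4+ libraries.

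Of 10 transcription factors of the T lineage, 7 were above the CD45+CD4- range in all CD4+ libraries, beside 5.74% of all genes tested. Of the 10, 1 was called, Ikzf2, which encodes Helios. It was at 153, 182 and 169 CPM in the CD45+CD4- libraries and 1657, 470.3 and 1156 CPM in the CD4+ libraries (log2 fold change 2.70 ± 0.23 SE, adjusted p = 3.48e-21), and its mean in the naive splenic Tregs was 4574 ± 1138 CPM (SD, n = 3). Tcf7 (322, 359 and 427 against 608, 643 and 665 CPM) and Lef1 (129.5, 238 and 194 against 539, 757 and 517 CPM), which act together in T cell development, had groups that did not overlap but were not called (adjusted p = 0.636 and 0.159). Zbtb7b, which encodes ThPOK, the factor of CD4 lineage choice, was at 10.1, 16.3 and 5.15 against 23.6, 28.2 and 26.3 CPM (adjusted p = 0.753). Bcl11b, Gata3, Satb1, Tox, Ets1 and Foxp1 were not called either. The median log2 fold change of the 10 was 1.13.

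Of 12 genes of resting and homing T cells, the membrane proteins Ms4a4b and Ms4a6b were higher. Ms4a4b was among the most abundant genes called, at 1454, 1113 and 3667 CPM in the CD45+CD4- libraries and 10028, 6388 and 9381 CPM in the CD4+ libraries (log2 fold change 2.05 ± 0.23 SE, adjusted p = 1.10e-13), and Ms4a6b was at 1144, 891 and 1758 against 4018, 3070.0 and 3734 CPM (log2 fold change 1.51 ± 0.23 SE, adjusted p = 9.79e-08). For both, CD45+CD4- replicate 3 was the highest of its group. The likelihood ratio test did not call Ms4a6b (adjusted p = 0.141). Il7r, the receptor of the survival cytokine IL-7 that is CD127, was at 354, 549.8 and 706 against 1237, 916 and 1029 CPM (adjusted p = 0.218). Ccr7 (78.2, 118 and 88.9 against 276, 167 and 361 CPM) had groups that did not overlap but was not called (adjusted p = 0.43). S1pr1 and Klf2, which govern exit from lymphoid tissue, overlapped.

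Of 14 helper effector genes, Maf was called (13.7, 126 and 46 against 372, 163 and 301 CPM, log2 fold change 2.17 ± 0.44 SE, adjusted p = 4.59e-04), and its adjusted p was 0.0502 without CD45+CD4- replicate 1. Cytokine genes were sparse. Il21 was at 0, 0 and 0 CPM in the CD45+CD4- libraries and 29.2, 4.43 and 6.66 CPM in the CD4+ libraries (adjusted p = 0.0773), Il4 was at 20, 52.6 and 9.4 CPM in the CD4+ libraries, Il2 at 25.6, 0.317 and 25.1 CPM, and Il17a had no count in any of the 6 libraries. Of 12 genes known from Tregs, 5 were higher in these GFP- CD4+ T cells, Ikzf2, Ctla4, Tnfrsf4, Nrp1 and Izumo1r, while Foxp3 overlapped. Tnfrsf4, which encodes OX40, was at 24.4, 14.7 and 23.8 against 190.3, 130.5 and 190.0 CPM (log2 fold change 3.02 ± 0.44 SE, adjusted p = 4.64e-08), Ctla4 at 0.611, 21.5 and 6.76 against 39, 45.6 and 137 CPM (log2 fold change 2.94 ± 0.52 SE, adjusted p = 2.16e-05), and Nrp1 at 0.611, 16.3 and 18 against 149.9, 45.3 and 59.6 CPM (log2 fold change 2.86 ± 0.58 SE, adjusted p = 4.52e-04). Izumo1r, which encodes the folate receptor FR4, was at 16.5, 68.8 and 11.9 against 144, 95.6 and 139 CPM (log2 fold change 1.96 ± 0.50 SE, adjusted p = 0.0155), a call lost without CD45+CD4- replicate 1 or 3 (adjusted p up to 0.163). The naive splenic Tregs had mean levels of 482 ± 126 CPM of Ctla4 and 318 ± 38.9 CPM of Nrp1 (SD, n = 3). Il2ra, which encodes CD25, was called lower, at 8.55, 52.8 and 0.966 against 1.31, 0.317 and 0.392 CPM, but the groups overlapped and its level was highest in CD45+CD4- replicate 2. The call was lost with the 6 compared libraries alone in the fit (adjusted p = 0.182), where 2 of the 12 were higher.

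Outside these lists, the largest difference of mean log2 CPM among genes called higher without overlap of the groups was that of Ly6c1, a surface protein of the Ly6 family, at 9.47, 43.7 and 10.6 CPM in the CD45+CD4- libraries and 1095, 605 and 827 CPM in the CD4+ libraries (log2 fold change 5.31 ± 0.65 SE, adjusted p = 2.28e-11). Slfn1, a Schlafen family gene, was at 13.4, 36.8 and 42.5 against 297, 259 and 488 CPM (log2 fold change 3.49 ± 0.64 SE, adjusted p = 3.57e-05), and Tgtp2, an interferon-inducible GTPase of T cells, at 20.2, 7.17 and 27 against 209, 98.2 and 197 CPM (log2 fold change 3.21 ± 0.76 SE, adjusted p = 0.00663). Rgs10, a regulator of G protein signalling, was at 43.7, 21.8 and 91.1 against 284, 404 and 340.5 CPM (log2 fold change 2.71 ± 0.50 SE, adjusted p = 5.06e-05). B630019A10Rik, at 34.5, 91 and 26.7 against 247, 519.7 and 306 CPM, Ldhb, the heart-type lactate dehydrogenase, at 0, 1.63 and 3.54 against 55.5, 31.4 and 41.5 CPM, and Efl1, at 28.7, 9.46 and 8.69 against 146, 172 and 103 CPM, had adjusted p of 0.00432, 0.0479 and 0.047. The call of Tgtp2 was lost without CD45+CD4- replicate 2, that of B630019A10Rik without CD45+CD4- replicate 1 or 3 or CD4+ replicate 2, that of Ldhb without CD45+CD4- replicate 1, 2 or 3 or CD4+ replicate 1 or 3, and that of Efl1 without CD45+CD4- replicate 2 or 3 or CD4+ replicate 1, 2 or 3 (adjusted p up to 0.0966, 0.0746, 0.28 and 0.265). Among the genes of highest level were the nuclear RNA Malat1 (27661, 7525 and 22330.1 against 46089, 47469.9 and 51703 CPM), the actin-binding Tmsb4x (10304, 7292 and 22667 against 24235, 37431 and 31765 CPM) and the mitochondrial mt-Co1 (3249, 1545 and 5782 against 6844, 6509 and 8735 CPM), all with log2 fold changes between 1.06 ± 0.19 SE (mt-Co1) and 1.34 ± 0.15 SE (Malat1). None of these 3 was called by the likelihood ratio test or with the 6 compared libraries alone in the fit, and DESeq2 did not call Malat1 or mt-Co1 (adjusted p up to 0.273 for Malat1, 0.317 for Tmsb4x and 0.451 for mt-Co1 over the settings that keep all 6 libraries). Gimap4, a GTPase of lymphocyte survival, was at 1104, 618 and 746 against 3247, 1938 and 2337 CPM (log2 fold change 1.61 ± 0.26 SE, adjusted p = 1.11e-06). Arhgap15, a Rac regulator, was at 1009, 479 and 798 against 2491, 2917 and 2380.2 CPM (log2 fold change 1.77 ± 0.28 SE, adjusted p = 1.24e-06). The likelihood ratio test called neither Gimap4 nor Arhgap15 (adjusted p = 0.129 and 0.0718). Ppia, cyclophilin A, and Son, a splicing cofactor, had log2 fold changes of 1.26 ± 0.26 and 0.74 ± 0.20 SE (adjusted p = 4.48e-04 and 0.0247). Their calls were lost without CD45+CD4- replicate 2 for Ppia and without CD45+CD4- replicate 2 or CD4+ replicate 1 for Son (adjusted p up to 0.116 and 0.271).

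**Figure D3:**
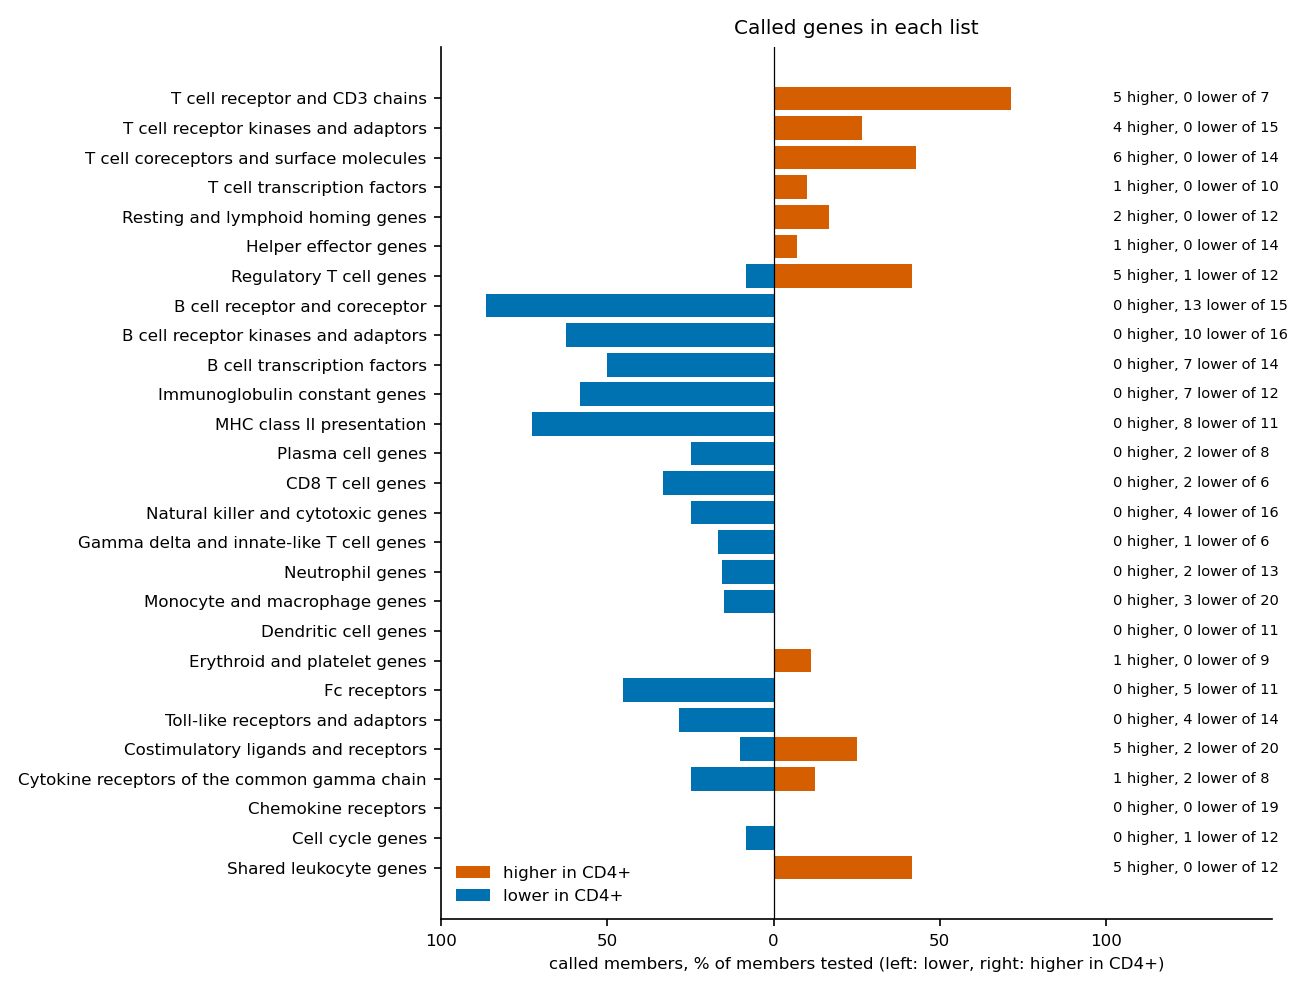
Share of the tested members of each of 27 gene lists that were called higher (right) or lower (left) in CD4+ T cells, in % of members tested, with the counts printed at the right. The B cell receptor list has 13 of 15 members lower, the MHC class II list 8 of 11 and the T cell receptor list 5 of 7 higher, against 0.659% lower and 0.379% higher over all genes tested. Members and lists were chosen with earlier results of these data known.

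Genes of B cells were among the largest differences, and they were lower in CD4+ T cells. Of 15 genes of the B cell receptor and its coreceptors, 13 were lower and none higher. Ms4a1, which encodes CD20, was at 906, 878 and 1211 CPM in the CD45+CD4- libraries and 35.4, 0.317 and 0.392 CPM in the CD4+ libraries (log2 fold change -6.36 ± 0.82 SE, adjusted p = 3.13e-10), and Cr2, the complement receptor CD21, at 1165, 533 and 814 against 19.4, 1.27 and 26.3 CPM (log2 fold change -5.74 ± 0.89 SE, adjusted p = 2.92e-07). The signalling chains differed in steadiness. Cd79b was even across the CD45+CD4- libraries (729.9, 692 and 765 CPM), while Cd79a varied more than 10-fold among the same libraries (378, 33.9 and 629 CPM) and was lowest in replicate 2. In the CD4+ libraries Cd79b was at 44.3, 0.317 and 0 CPM (log2 fold change -5.61 ± 0.92 SE, adjusted p = 2.59e-06), all of it but 1 count in replicate 1. Cd79a was there at 2.95, 2.22 and 0 CPM (log2 fold change -7.59 ± 1.17 SE, adjusted p = 2.92e-07). The inhibitory receptor Cd22 was at 883, 391 and 447 against 0.328, 17.7 and 3.53 CPM (log2 fold change -6.30 ± 0.97 SE, adjusted p = 2.72e-07), and the low-affinity IgE receptor Fcer2a at 438, 429 and 270.1 against 1.97, 0 and 0.784 CPM (log2 fold change -8.63 ± 1.25 SE, adjusted p = 3.31e-08). The members Cd24a, Fcmr (the IgM Fc receptor), Fcgr2b (the inhibitory IgG Fc receptor) and Tnfrsf13c (the BAFF receptor), were at the limit of detection in every CD4+ library and were at least 203-fold, 168-fold, 158-fold and 161-fold higher in CD45+CD4- cells. Tnfrsf13b, which encodes TACI, and Cd180, a Toll-like receptor homologue, were lower as well (adjusted p = 0.0441 and 0.00237). The call of Tnfrsf13b was lost without CD45+CD4- replicate 1, 2 or 3 or CD4+ replicate 2 or 3, and that of Cd180 without CD4+ replicate 1 (adjusted p up to 0.287 and 0.0568). Cd81 and Cd72 were not called. Outside the lists, Siglecg, a sialic acid-binding inhibitor of B cell receptor signalling, was at 1399, 239 and 519.6 against 0.328, 0.317 and 5.88 CPM (log2 fold change -8.39 ± 1.04 SE, adjusted p = 3.95e-11). Swap70, a Rac regulator of B cells, was at 322, 328 and 184 against 0, 1.27 and 0 CPM, and so was also nearly absent from the CD4+ libraries. The same held for Scd1, a fatty acid desaturase (270.4, 459.8 and 522 against 0, 2.22 and 0.392 CPM, log2 fold change -8.81 ± 1.04 SE, adjusted p = 3.47e-12).

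Promoter windows of 3 of these B cell genes are shown because each holds letters known as a site of factors of the B lineage. Vpreb3, a B cell gene of the pre-B cell receptor family, was at 98.1, 68.1 and 211 CPM in the CD45+CD4- libraries and 0, 0.317 and 0 CPM in the CD4+ libraries. Capitals mark the EBF site in Cd22, searched as TCCC and GGGA with any 2 bases between them, the octamer ATGCAAAT in Vpreb3, read by Oct factors, and the E box CAGGTG in Cd79a, each on either strand.
Cd22, chr7:30878979-30879278, minus strand: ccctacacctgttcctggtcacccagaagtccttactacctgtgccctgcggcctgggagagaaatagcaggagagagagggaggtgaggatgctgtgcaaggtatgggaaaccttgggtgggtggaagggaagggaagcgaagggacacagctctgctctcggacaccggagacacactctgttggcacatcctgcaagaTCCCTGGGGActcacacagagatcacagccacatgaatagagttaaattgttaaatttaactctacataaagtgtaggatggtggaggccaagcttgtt
Vpreb3, chr10:75948050-75948349, plus strand: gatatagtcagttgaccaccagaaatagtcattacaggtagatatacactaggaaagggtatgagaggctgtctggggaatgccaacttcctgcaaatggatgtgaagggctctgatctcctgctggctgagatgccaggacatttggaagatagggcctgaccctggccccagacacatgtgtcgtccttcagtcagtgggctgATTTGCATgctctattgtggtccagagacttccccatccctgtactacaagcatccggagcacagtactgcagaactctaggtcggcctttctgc
Cd79a, chr7:24897247-24897546, plus strand: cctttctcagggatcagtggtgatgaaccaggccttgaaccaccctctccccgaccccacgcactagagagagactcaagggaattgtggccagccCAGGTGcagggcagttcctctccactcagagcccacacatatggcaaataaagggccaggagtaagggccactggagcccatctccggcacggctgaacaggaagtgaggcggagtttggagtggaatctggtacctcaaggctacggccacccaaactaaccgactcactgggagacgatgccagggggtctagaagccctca
The matches start 49, 45 and 154 bases before the start site, respectively. The EBF site is in 0.904% of all windows and in 3 of the 140 windows of genes lower in CD4+ T cells (2.14%), and the octamer in 1.74% and in 4 of the 140 (2.86%), against 1 and 2 of the 73 windows of genes higher there. The TCF site CTTTGAT was in 3.73% of all windows, 5.48% of those of higher genes and 5% of those of lower genes, the ETS site GAGGAAGT in 3.2%, 4.11% and 7.86%, and the RUNX site TGTGGTT in 5.27%, 9.59% and 8.57%. None of the motif strings holds another, and a match is a description of these letters only. Windows were found for 61 of the 96 and 108 of the 167 genes.

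Of 12 immunoglobulin constant genes, 7 were lower in CD4+ T cells. The kappa light chain gene Igkc was at 2576, 2983 and 5885 CPM in the CD45+CD4- libraries and 59.1, 14.6 and 19.2 CPM in the CD4+ libraries (log2 fold change -6.94 ± 0.50 SE, adjusted p = 5.99e-29), the smallest adjusted p among the genes of the lists. Of the heavy chains of mature naive B cells, Ighd was at 2857, 2688 and 2029.5 against 48.2, 0.95 and 7.84 CPM (log2 fold change -7.05 ± 0.59 SE, adjusted p = 2.86e-22). Ighm was at 2478, 2942 and 1989 CPM in the CD45+CD4- libraries but still at 382, 344 and 423 CPM in the CD4+ libraries (log2 fold change -2.69 ± 0.30 SE, adjusted p = 1.76e-13). Its mean in CD4+ T cells was thus 15.5% of that in CD45+CD4- cells, where that of Ighd was 0.753% and that of Igkc 0.811%. Igkc and Ighd were highest in CD4+ replicate 1 among the CD4+ libraries, and Ighm was not. The tolerant CD4+ libraries had 569.9, 491 and 654 CPM of Ighm as well. The lambda gene Iglc2 was at 1212, 1077 and 2494 against 37.1, 15.2 and 0 CPM (log2 fold change -6.51 ± 0.83 SE, adjusted p = 1.45e-10), and Iglc3 at 1129, 901 and 1841 against 9.19, 64.9 and 8.23 CPM (log2 fold change -5.55 ± 0.77 SE, adjusted p = 5.21e-09). Iglc1 was at 332, 316 and 572 against 0, 33.6 and 0 CPM (log2 fold change -5.17 ± 1.04 SE, adjusted p = 3.46e-04), with counts in CD4+ replicate 2 alone of its group. Its call was lost with the likelihood ratio test, with genes kept only at 10 counts in 3 or more libraries and with DESeq2 (adjusted p up to 0.403). DESeq2 did not call Iglc2 either (adjusted p = 0.0570). Iglc2 and Iglc3 are close copies of each other, and reads that fit both are not counted. Of the switched isotypes, Ighg2b was called (31.2, 73 and 5.15 CPM against the limit of detection, at least 35.2-fold, lost without CD4+ replicate 1 or 3), and Ighg1, Ighg2c, Ighg3, Igha and Ighe were not.

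Variable (V) segments, which recombine with other segments into the antigen-binding part of the receptor, were mostly spread more widely between libraries than the constant genes. Single segments mostly had fewer counts than the constant genes, and the part of counting error in the wider spread was not tested. The CD45+CD4- libraries had 88, 21 and 94 of 218 annotated immunoglobulin V segments with at least 10 counts, and 5239, 1583 and 11334 counts on them. In replicate 2 the single segment Igkv6-15 took 45.3% of these counts, and in replicate 3 Igkv12-46 took 22.6%. Over the 42 V segments with a mean of at least 10 CPM, the median coefficient of variation among the 3 CD45+CD4- libraries was 96.3%, and over the 7 constant genes at that level (Ighm, Ighd, Ighg2b, Igkc and the 3 lambda genes) it was 38.0%. Ighg2b was itself widely spread (31.2, 73 and 5.15 CPM). Of 179 V segments tested, 17 were lower in CD4+ T cells. For the TCR, 63, 49 and 64 of 144 annotated V segments had at least 10 counts in the CD4+ libraries and 20, 9 and 25 in the CD45+CD4- libraries. The most used, Trbv3 in replicates 1 and 3 and Trav14d-3-dv8 in replicate 2, took 8.58% to 9.33% of the TCR V counts, and 5 of 99 V segments tested were higher in CD4+ T cells.

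Of 16 kinases and adaptors of B cell receptor signalling, 10 were lower in CD4+ T cells and none higher. The kinases Syk, Lyn, Blk and Btk were nearly absent from CD4+ T cells. Syk was at 244, 203 and 103 CPM in the CD45+CD4- libraries and 0, 1.27 and 0 CPM in the CD4+ libraries (log2 fold change -8.57 ± 1.46 SE, adjusted p = 7.50e-06). Lyn, Blk and Btk were at the limit of detection in every CD4+ library, and at least 196-fold, 193-fold and 50.1-fold higher in CD45+CD4- cells. The adaptor Blnk (428, 202 and 316 against 0.656, 75.7 and 0 CPM, log2 fold change -3.63 ± 0.96 SE, adjusted p = 0.0247) and the scaffold Bank1 (782, 630.0 and 597 against 27.9, 62.7 and 0.392 CPM, log2 fold change -4.46 ± 0.84 SE, adjusted p = 8.90e-05) were highest, among CD4+ libraries, in replicate 2. Ptpn6, the phosphatase SHP-1 that both lineages use, was lower but well above the limit of detection (660.2, 512 and 252 against 99.4, 122 and 87.4 CPM, log2 fold change -2.21 ± 0.55 SE, adjusted p = 0.0131), as was Ralgps2 (898, 575 and 638 against 117, 83.6 and 206 CPM, log2 fold change -2.38 ± 0.58 SE, adjusted p = 0.00887). Plcg2, the phospholipase of B cell receptor signalling, and Fcrla, an Fc receptor-like protein, completed the 10 with log2 fold changes of -6.14 ± 1.60 and -5.82 ± 1.22 SE (adjusted p = 0.0212 and 7.99e-04). Prkcb, Vav3, Dapp1, Grb2, Pik3ap1 and Bfsp2 were not called. Without CD4+ replicate 1, 5 of the 16 were lower, and without CD4+ replicate 3, 6. The call of Btk was lost without CD45+CD4- replicate 1 or CD4+ replicate 1, 2 or 3, that of Blnk without CD4+ replicate 1 or 3, that of Plcg2 without CD45+CD4- replicate 2 or CD4+ replicate 1, 2 or 3, that of Ptpn6 without CD45+CD4- replicate 1 or CD4+ replicate 1 or 3, and that of Ralgps2 without CD45+CD4- replicate 1 or CD4+ replicate 1 or 2, with adjusted p of up to 0.169, 0.167, 0.185, 0.13 and 0.106.

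Of 14 transcription factors of B cells, 7 were lower: Pax5, Ebf1, Spib, Bcl11a, Pou2af1, Pou2f2 and Mef2c. Pax5, which fixes B cell identity, was at 61.4, 142 and 81.8 CPM in the CD45+CD4- libraries and at the limit of detection in each CD4+ library, at least 91.8-fold lower. Ebf1, which acts before Pax5, was at 883, 553 and 879 against 13.1, 45.6 and 0 CPM (log2 fold change -5.29 ± 0.78 SE, adjusted p = 7.64e-08), and Mef2c at 637, 571 and 600.4 against 0.656, 10.8 and 0 CPM (log2 fold change -7.27 ± 0.94 SE, adjusted p = 3.13e-10). Bcl11a was at 398, 374 and 334 against 14.4, 2.22 and 0.784 CPM (log2 fold change -5.97 ± 0.98 SE, adjusted p = 2.31e-06). Pou2af1, the coactivator of Oct factors, and Pou2f2, which encodes Oct-2, had log2 fold changes of -4.84 ± 1.22 and -3.11 ± 0.78 SE (adjusted p = 0.0135 and 0.0129). The call of Pou2af1 was lost without CD4+ replicate 2 or 3, and that of Pou2f2 without CD45+CD4- replicate 1 or CD4+ replicate 2 or 3 (adjusted p up to 0.13 and 0.168). Bach2 was at 247, 603 and 405 against 353, 280.0 and 315 CPM and overlapped, with a log2 fold change of -0.40 ± 0.54 SE (95% interval -1.47 to 0.66), and Irf4 overlapped as well. Irf8 and Tcf4, which dendritic cells use as well, were raised in CD4+ replicate 2 (Irf8 at 4.27, 108 and 13.7 CPM in the CD4+ libraries) and were not called. The median log2 fold change of the 14 was -4.42, or -4.34 with genes at the limit of detection set to their bound.

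MHC class II genes were lower in each CD4+ library than in any CD45+CD4- library for all 11 genes tested, and 8 were called. Over all genes tested, these shares were 7.13% and 0.659%. H2-Aa, the alpha chain of I-A, was at 1178, 1327 and 2085 CPM in the CD45+CD4- libraries and 148, 93.4 and 53.3 CPM in the CD4+ libraries (log2 fold change -3.96 ± 0.70 SE, adjusted p = 1.52e-05). Its beta chain H2-Ab1 was at 863, 1039.5 and 834 against 117, 25 and 80.7 CPM (log2 fold change -3.62 ± 0.72 SE, adjusted p = 2.72e-04). H2-Eb1, the beta chain of I-E, was at 491, 482 and 538 against 66.9, 11.7 and 30.2 CPM (log2 fold change -3.79 ± 0.78 SE, adjusted p = 5.98e-04). The invariant chain Cd74 was at 1916, 1299 and 4355 against 311, 122 and 96 CPM (log2 fold change -3.84 ± 0.42 SE, adjusted p = 1.10e-13). CD4+ replicate 1 was the highest of its group for H2-Aa, H2-Ab1, H2-Eb1 and Cd74. The peptide exchange chain H2-DMb2 was at 196, 219.8 and 193 against 1.97, 0.633 and 0 CPM (log2 fold change -7.77 ± 1.36 SE, adjusted p = 1.49e-05), H2-DMb1 was at least 125-fold lower in CD4+ T cells, and the inhibitory H2-Ob was at 741, 633 and 547 against 33.1, 69 and 25.9 CPM (log2 fold change -3.90 ± 0.70 SE, adjusted p = 2.39e-05). Ciita, the transactivator of these genes, was at 260.0, 291 and 162 against 0, 8.23 and 1.96 CPM (log2 fold change -6.10 ± 1.35 SE, adjusted p = 0.00199). H2-DMa (136, 171 and 217 against 119, 40.9 and 70.5 CPM), H2-Eb2 and H2-Oa were not called. When genes had to reach 10 counts in no fewer than 3 libraries, 3 of the 11 were called, and DESeq2 called 5.

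The windows of H2-Aa and H2-Eb1 are shown because they carry the Y box of class II promoters, the NF-Y site CTGATTGG, in capitals.
H2-Aa, chr17:34287774-34288073, minus strand: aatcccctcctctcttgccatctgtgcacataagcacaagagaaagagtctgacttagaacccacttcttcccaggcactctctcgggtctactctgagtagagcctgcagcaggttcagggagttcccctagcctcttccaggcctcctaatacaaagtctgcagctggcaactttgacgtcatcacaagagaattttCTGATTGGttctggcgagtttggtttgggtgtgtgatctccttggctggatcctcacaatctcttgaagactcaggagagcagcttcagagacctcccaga
H2-Eb1, chr17:34305617-34305916, plus strand: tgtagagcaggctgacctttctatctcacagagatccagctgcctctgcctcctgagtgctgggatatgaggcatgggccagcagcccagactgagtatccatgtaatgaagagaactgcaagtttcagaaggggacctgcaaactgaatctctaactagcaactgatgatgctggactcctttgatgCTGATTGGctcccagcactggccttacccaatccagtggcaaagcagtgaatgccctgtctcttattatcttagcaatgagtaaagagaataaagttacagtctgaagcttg
The matches start 51 and 62 bases before the start site. Of 9 windows of 8 genes of the class II list, 4 held the Y box (44.4%), beside 4.1% of all windows, 8.22% of those of genes higher and 7.14% of those of genes lower in CD4+ T cells, and they belong to H2-Aa, H2-Eb1, H2-Eb2 and H2-Oa, of which the first 2 were called.

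The other leukocytes of the spleen showed in the CD45+CD4- libraries in unequal amounts. Of 8 plasma cell genes, Jchain and Mzb1 were lower in CD4+ T cells, where they were at the limit of detection, and the other 6 were not called. The median log2 fold change of the list was 0 with genes at the limit of detection set to their bound. Jchain, which joins secreted IgM and IgA, was at 43.4, 735 and 1021 CPM in the CD45+CD4- libraries, with replicate 1 far below the other 2, and the difference was at least 579-fold. Of 6 CD8 T cell genes, Cd8a (213, 209 and 350.0 against 0, 6.65 and 0 CPM, log2 fold change -6.81 ± 1.41 SE, adjusted p = 5.98e-04) and the granule gene Nkg7 (285, 294 and 666 against 71.2, 88 and 47.4 CPM, log2 fold change -2.59 ± 0.66 SE, adjusted p = 0.0152) were lower, and Cd8b1 (157, 239 and 409.8 against 15.4, 22.2 and 20.4 CPM) was not called (adjusted p = 0.0588). CD45+CD4- replicate 3 was the highest of its group for all 3. The call of Cd8a was lost with genes kept only at 10 counts in 3 or more libraries (adjusted p = 0.0899), and its fitted log2 fold change was -12.54 without CD4+ replicate 2, the CD4+ library with reads of it. Of 16 NK and cytotoxic genes, Klre1, Klra4, Klra8 and Il2rb were lower. Klre1 was at 85.2, 96.8 and 193 CPM in the CD45+CD4- libraries, at least 120.5-fold higher, and Il2rb, the beta chain of the IL-2 and IL-15 receptors, at 111, 227 and 109.8 against 33.5, 37.1 and 16.8 CPM (log2 fold change -2.36 ± 0.55 SE, adjusted p = 0.0056). Ncr1, a defining NK receptor, was at 40.9, 23.8 and 50.9 CPM in the CD45+CD4- libraries, at least 37.2-fold higher by means but not called (adjusted p = 0.157). Gzma was at 0, 0 and 65.8 CPM in the CD4+ libraries and overlapped none of the CD45+CD4- libraries (126, 364 and 331 CPM, adjusted p = 0.137). Trdc, the TCR delta constant gene, was at 22.3, 30.3 and 40.2 CPM in the CD45+CD4- libraries and had no count in the CD4+ libraries, at least 29.9-fold lower, although the call was lost without CD4+ replicate 1, 2 or 3 (adjusted p up to 0.156). The same check ended the call of Nkg7 without CD45+CD4- replicate 3 or CD4+ replicate 3, of Il2rb without CD45+CD4- replicate 2 or CD4+ replicate 3 and of Klra4 without CD4+ replicate 1, 2 or 3 (adjusted p up to 0.0618, 0.13 and 0.0766). With the 6 compared libraries alone in the fit, 4 of the 6 CD8 T cell genes and 9 of the 16 NK and cytotoxic genes were lower.

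Myeloid genes were variable. S100a8, a calgranulin of neutrophils and monocytes, was at 22.6, 182 and 396 CPM in the CD45+CD4- libraries, and its partner S100a9 at 11.9, 214 and 159 CPM. Both were at the limit of detection in the CD4+ libraries (0, 0 and 0 and 0, 0 and 0 CPM), at least 193-fold and 124-fold lower, and DESeq2 called neither. Ly6g, the defining neutrophil marker, was at 0.306, 0.326 and 0 CPM, at or below the limit of detection in all 3 CD45+CD4- libraries. Of 13 neutrophil genes, these 2 were called. Of 20 monocyte and macrophage genes, Lyz2, Ly6c2 and Cybb were lower in CD4+ T cells. Lyz2, lysozyme, was at 90.7, 238 and 399.5 CPM in the CD45+CD4- libraries, at least 234-fold higher, while the defining Csf1r (1.83, 12.1 and 10.3 CPM), Adgre1 (0.611, 28 and 12.2 CPM) and C1qa (0.306, 0 and 0 CPM) were low or near 0 there. The call of Ly6c2 was lost without CD45+CD4- replicate 3 or CD4+ replicate 1, 2 or 3, and that of Cybb without CD4+ replicate 2 or 3 (adjusted p up to 0.226 and 0.156). None of 11 dendritic cell genes was called, of which Itgax, which encodes CD11c, came nearest (92, 36.2 and 56.7 against 0.328, 0.95 and 0 CPM, adjusted p = 0.0553). CD45+CD4- replicate 1 was the lowest of the 3 for S100a8, S100a9, Lyz2 and Jchain alike. The summed level of the 13 neutrophil genes ranged from 55 to 645 CPM in the CD45+CD4- libraries and 0.784 to 8.86 CPM in the CD4+ libraries. That of the 20 monocyte and macrophage genes ranged from 1226 to 2981 CPM in the CD45+CD4- libraries and 641 to 894 CPM in the CD4+ libraries. That of the 15 B cell receptor and coreceptor genes ranged from 4643 to 7147 CPM in the CD45+CD4- libraries and 59.5 to 228 CPM in the CD4+ libraries. In the erythroid list Hbb-bs, a beta globin, was called higher (0, 0 and 3.22 against 177, 0 and 0 CPM, adjusted p = 0.0459). Leaving out CD4+ replicate 1 turned its log2 fold change to -4.69 (adjusted p = 0.539), and the call was also lost without CD45+CD4- replicate 1 or 2.

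Lists that cut across lineages split by member. Of 11 Fc receptor genes 5 were lower and none higher in CD4+ T cells, and of these Fcrl1 (476, 205 and 300.1 against 3.28, 13.3 and 74.4 CPM, log2 fold change -3.43 ± 0.87 SE, adjusted p = 0.0143) lost the call without CD45+CD4- replicate 1 or CD4+ replicate 1 or 2 (adjusted p up to 0.17). Of 14 Toll-like receptor genes, Tlr7, Cd180, its partner Ly86 and the chaperone Unc93b1 were lower. Ly86 was at 398, 375 and 458 against 0, 9.5 and 0 CPM (log2 fold change -6.98 ± 1.04 SE, adjusted p = 8.29e-08), Unc93b1, which carries nucleic acid-sensing receptors to endosomes, at 184, 86.4 and 83.4 against 5.25, 3.8 and 5.49 CPM (log2 fold change -4.60 ± 1.21 SE, adjusted p = 0.0237), and Tlr7, a receptor of single-stranded RNA, at 21.7, 6.2 and 42.2 against 0, 0 and 0 CPM. The call of Unc93b1 was lost without CD45+CD4- replicate 1 or CD4+ replicate 1, 2 or 3, and that of Tlr7 without CD4+ replicate 1 or 3 (adjusted p up to 0.153 and 0.0692). Without CD4+ replicate 1, 1 of the 14 was called lower, and without CD4+ replicate 3, 2. Among 8 cytokine receptors that use the common gamma chain, the shared chain Il2rg was higher in CD4+ T cells (342, 216 and 204 against 982, 417 and 672 CPM, log2 fold change 1.44 ± 0.39 SE, adjusted p = 0.0312) and Il2rb was lower, as was Il2ra except in the fits of the 6 compared libraries alone, but Il2rg lost the call without CD45+CD4- replicate 2 or 3 or CD4+ replicate 1 or 3 (adjusted p up to 0.311). Of 20 costimulatory genes, Cd40lg, Cd28, Ctla4, Icos and Tnfrsf4 were higher and Cd40 and Tnfrsf13c lower. Cd86, a ligand of CD28, was at 70.3, 68.5 and 50.5 against 0.984, 6.97 and 24.3 CPM and was not called (adjusted p = 0.205). None of 19 chemokine receptors was called, and 1 of 12 cell cycle genes, Ube2c, was (0.306, 4.24 and 20 against 0, 0 and 0 CPM), a call lost without CD45+CD4- replicate 3 or CD4+ replicate 1, 2 or 3. Of 12 genes shared by all leukocytes, B2m, Cd52, Cd53, Arhgdib and Tmsb4x were higher in CD4+ T cells, of which Arhgdib (559.7, 339 and 1300.3 against 2745, 2054 and 2337 CPM) and Tmsb4x did not overlap. The B2m, Cd52 and Cd53 groups overlapped, 3 of the 12 were called without CD45+CD4- replicate 1, and the likelihood ratio test called none of the 12.

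As shares of all gene counts, immunoglobulin genes took 1.40%, 1.39% and 1.85% in the CD45+CD4- libraries and 0.0563%, 0.0458% and 0.0439% in the CD4+ libraries. The share of TCR genes was 0.181%, 0.206% and 0.204% in the CD45+CD4- libraries and 0.681%, 0.440% and 0.609% in the CD4+ libraries. MHC class II genes took 0.685%, 0.685% and 0.907% against 0.0782%, 0.0335% and 0.0312%. The groups did not overlap for any of these 3 classes (exact permutation test, 2-sided, p = 0.1 each and 0.167 after adjustment over 5 classes), and 0.1 is the smallest p that 3 libraries against 3 can give. Ribosomal protein genes (means 6.81% ± 1.88 in CD45+CD4- cells and 8.29% ± 2.79 in CD4+ T cells, SD, n = 3) and mitochondrial genes (2.44% ± 0.888 and 2.66% ± 0.652) overlapped (exact permutation p = 0.5 and 0.6).

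**Figure D4:**
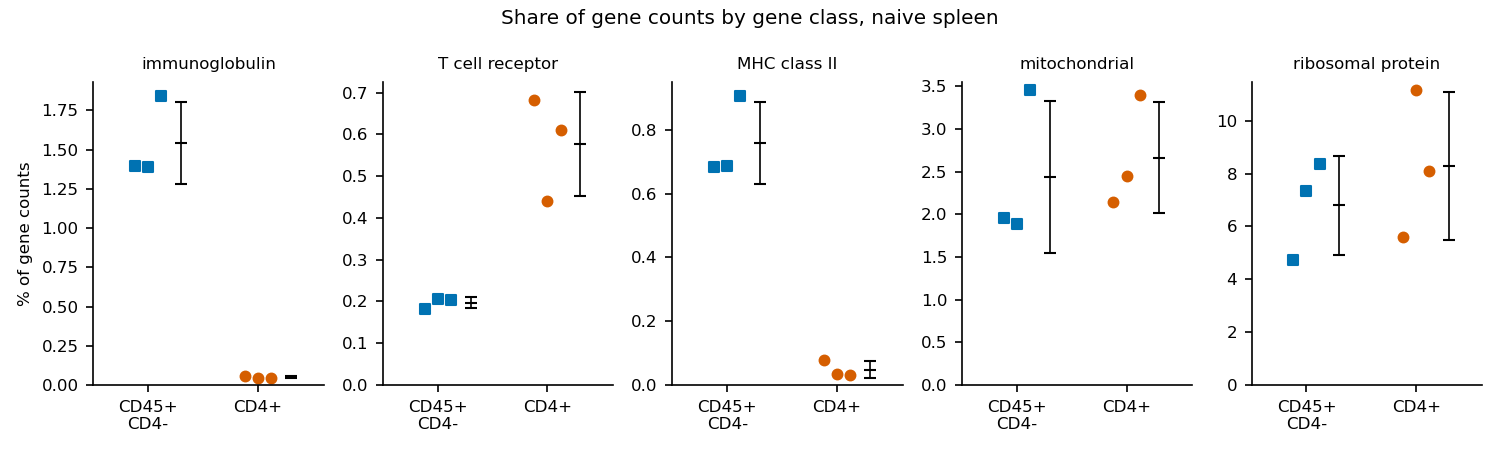
Share of gene counts (%) in 5 gene classes for the 3 CD45+CD4- libraries (squares) and the 3 CD4+ libraries (circles) of naive spleen, with the mean and SD of each group beside the points as bars. The immunoglobulin, TCR and MHC class II shares are apart between the subsets, and the mitochondrial and ribosomal shares overlap.

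The 3 libraries of each subset from tolerant spleen gave the same contrast in other mice, with the error estimated in the same fit. There 191 genes were higher (0.754% of 25347) and 197 lower (0.777%) in CD4+ T cells, 1.53% in all. Of the 263 genes called in naive spleen, 259 had the same sign in tolerant spleen, and 196 were called in the same direction, which is 74.5% of the naive and 50.5% of the tolerant calls. By direction these were 77 of the 96 higher and 119 of the 167 lower genes. The tolerant libraries did not overlap in the naive direction for 85 of the 96 and 153 of the 167, beside 8.24% (CD4+ above) and 10.8% (CD4+ below) of all genes tested. All 7 genes of the TCR complex were called there. Cd3e, not called in naive spleen, was at 81.5, 77 and 84.5 against 419, 384 and 444 CPM (adjusted p = 3.43e-04), and Cd247 at 55.5, 71.7 and 26.5 against 386, 233 and 298 CPM (adjusted p = 0.0054). Of the 4 genes with the opposite sign, Il2ra (adjusted p = 0.721), Rps27 and Tti2 were not called in tolerant spleen, and Hbb-bs was called lower (70.2, 0 and 102 against 0, 0 and 0 CPM), being read in some libraries of either subset.

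**Figure D5:**
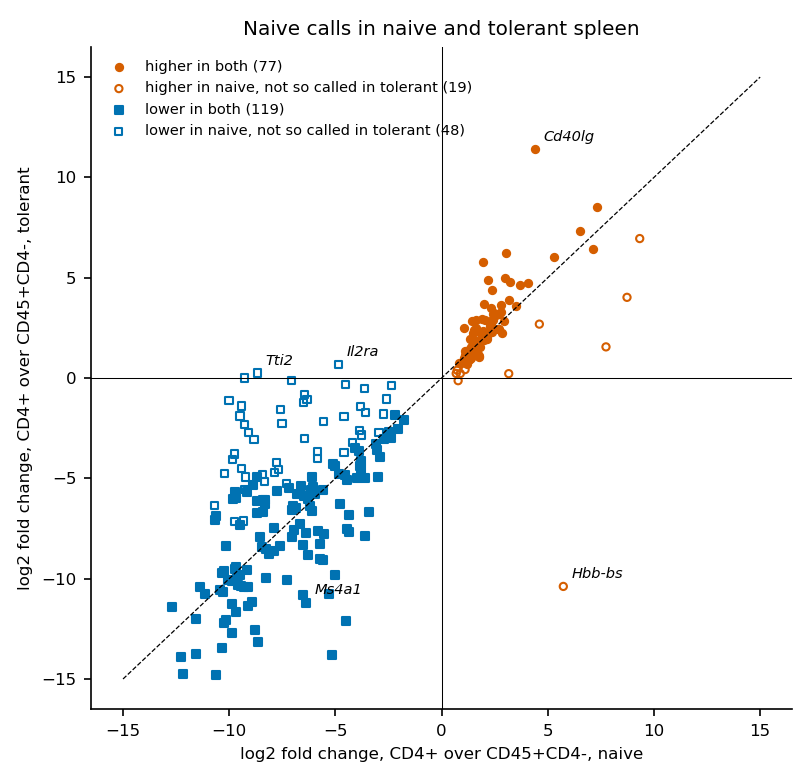
Log2 fold change of CD4+ over CD45+CD4- cells in naive (x axis) and tolerant spleen (y axis) for the 263 genes called in naive spleen, circles for higher and squares for lower genes, filled where they were called in the same direction in tolerant spleen (77 and 119). The dashed line marks equal change, and 259 of the 263 points share the sign, with Hbb-bs far off the line.

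The difference between the naive and the tolerant contrast was called for 12 genes (0.0473% of those tested), 6 in each direction, and 1302 genes had an unadjusted p under 0.05. Cd40lg was at 0.276, 0 and 0 CPM in the tolerant CD45+CD4- libraries, below each of the naive ones (14.7, 21.2 and 19.6 CPM), with 482, 312 and 354 CPM in the tolerant CD4+ libraries, close to the naive ones. The fitted log2 difference of the contrasts was -7.02 ± 1.23 SE (adjusted p = 2.40e-04), and -4.36 with the tolerant CD45+CD4- level, at the limit of detection, set to its bound. Tnfrsf4 followed it, at 0, 9.62 and 0 CPM in the tolerant CD45+CD4- libraries against 24.4, 14.7 and 23.8 CPM in the naive ones (-3.24 ± 0.61 SE, adjusted p = 9.83e-04). Both calls held without any one of the 12 libraries, and that of Tnfrsf4 was lost with the likelihood ratio test and with the 12 Foxp3- libraries alone in the fit. Summed levels of T cell lists were also lower in the tolerant than in the naive CD45+CD4- libraries. The TCR and CD3 chains were at 1449, 1316 and 1097 CPM against 1634, 2054 and 3182 CPM. The T cell coreceptors and surface molecules were at 934, 996 and 717 CPM against 1824, 1511 and 1512 CPM. The part of this in the called differences was not tested. Ms4a1 was at 35.4, 0.317 and 0.392 CPM in the naive CD4+ libraries, and without replicate 1 its log2 difference was -0.11 and not called. Ebf1 was at 13.1, 45.6 and 0 CPM there, and its call was lost without replicate 2, while its log2 difference stayed between 3.91 and 6.29 without any one of the 12 libraries.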

How the data were processed

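Naive mice were DEREG mice without transplant or treatment. According to the methods, cDNA was amplified from sorted cells with SMART-Seq v4 (1000 per library for Tregs, with no number given for these subsets), prepared with Nextera XT and, for spleen, sequenced as pairs on a NextSeq 500. The authors trimmed reads with Trim Galore and used STAR with mm10, to which EGFP was added. The deposited values are raw counts per gene without normalization, over both strands, so that overlapping and antisense genes cannot be told apart. The methods name HTSeq, while the layout is that of STAR. Totals of reads without a gene were left out of library sizes and tests; they took 28.97% to 38.27% (no feature) and 2.06% to 2.6% (ambiguous) of the read pairs in these 6 libraries.

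The 25347 genes that reached 1 CPM in any of the 33 libraries were fitted with 1 mean per subset in edgeR 4.0.16 (R 4.3.3, limma 3.58.1), with TMM factors and the quasi-likelihood test. DESeq2 1.42.0 was an alternative, and figures and counts used Python 3.11.15, numpy 2.4.6, scipy 1.17.1 and pandas 2.3.3. DEGs had an adjusted p under 0.05. The SE of a log2 fold change was computed back from the test. It is the absolute log2 fold change over the square root of the F statistic, and the interval given rests on it. A subset with at most 3 counts in every library counted as undetected, and its fold is a lower bound, the mean of the other subset against 3 counts per library, which covers counting error only. Gene positions came from GENCODE vM21 (GRCm38), where 43 of 31054 identifiers were absent, and promoters from RefSeq (GRCm38.p6). The scripts were first tested on simulated data. At 3 libraries per subset, a gene that was not called is not shown to be at the same level in both. Named genes were members of 27 lists, the 15 genes per direction with the largest difference of mean log2 CPM (prior count 2) and the 10 of highest level, among called genes without overlap and without V, D and J segments, and 5 per direction of the interaction. Vpreb3, Rps27 and Tti2 were named after their values were seen, and the 7 motifs were chosen after earlier looks. Members and lists were chosen with earlier results of these data known. Replicate pairs differed beyond sampling noise, so each library counted once. Alternatives were the likelihood ratio test, DESeq2, RLE, other filters, other sets of libraries, a replicate block and leaving out each library. The study itself called its DEGs with edgeR's likelihood ratio test, so the main test here differs from that of the study. Some members of the lists are not reported here by name.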

Additional observations from a re-analysis of the deposited data

Results flagged for a closer look

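The contrast of CD4+ T cells against CD45+CD4- cells differed between naive and tolerant spleen for 12 genes by a test of the difference itself (edgeR's quasi-likelihood test, adjusted p under 0.05), given here as fitted log2 differences, naive minus tolerant. In the negative direction were Penk (-11.05), Cd40lg (-7.02), Il2ra (-5.52), Izumo1r (-3.80), Tnfrsf4 (-3.24) and Maf (-2.73). In the positive direction were Hbb-bs (16.12), Hbb-bt (14.37), Gzma (8.71), Iglc1 (8.63), Ebf1 (5.47) and Ms4a1 (4.83). For 6 of the 12, 1 or 2 of the 4 subsets were at the limit of detection. With these subsets at their bound and the other contrasts as fitted, the difference was 12.02 for Hbb-bs, 7.56 for Hbb-bt, 4.61 for Gzma and 4.53 for Iglc1. It was -4.36 for Cd40lg and -3.74 for Penk.

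Penk, an opioid precursor, had 0, 0 and 0 CPM in the naive CD4+ libraries and 12.5, 20.7 and 0.773 CPM in the tolerant ones. Il2ra was at 18.9, 23.7 and 16.2 CPM in the tolerant CD4+ libraries and 1.31, 0.317 and 0.392 CPM in the naive ones. Izumo1r was at 11.9, 0.275 and 0 CPM in the tolerant CD45+CD4- libraries, and Maf at 3.59, 4.95 and 17 CPM, against 16.5, 68.8 and 11.9 and 13.7, 126 and 46 CPM in the naive ones. The calls of Penk, Il2ra and Izumo1r were lost without naive CD45+CD4- replicate 2, but their log2 differences kept the sign without any one of the 12 libraries, from -12.76 to -8.57 for Penk, -6.39 to -3.43 for Il2ra and -8.26 to -2.64 for Izumo1r. These calls were also lost with the 12 Foxp3- libraries alone in the fit, and that of Izumo1r with the likelihood ratio test. Iglc1 was at 0, 33.6 and 0 CPM in the naive CD4+ libraries, and without replicate 2 of these its log2 difference was 0.59 and not called. That of Hbb-bs was 5.65 and not called without naive CD4+ replicate 1. Maf was not called without any one of 5 of the 12 libraries, Gzma of 6 and Hbb-bt of 7.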

How the results depend on the processing

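Of the 263 genes called in naive spleen, 96 were higher and 167 lower in CD4+ T cells. Leaving out 1 of the 6 libraries gave 157 to 288 genes, 50 to 135 higher and 95 to 155 lower, with 25 to 31 list genes higher and 50 to 64 lower. Leaving out 1 of the 12 naive or tolerant libraries gave, in tolerant spleen, 214 to 436 genes, 152 to 279 naive calls with the same sign there, and 10 to 24 genes whose contrast differed between naive and tolerant mice. The likelihood ratio test, the one the study used, called 39 genes higher and 177 lower. It called 14 list genes higher and 5 genes for the difference of the contrasts. With genes kept only at 10 counts in 3 or more libraries, 173 were called, 93 lower, of which 43 were list genes. With the 6 compared libraries alone, 396 were called, 275 lower. With the 12 Foxp3- libraries, 714 were called, 275 higher and 439 lower, and 6 for the difference of the contrasts. With the 24 spleen and graft libraries, 480 were called, 213 higher and 267 lower. DESeq2 called 615, 178 higher and 437 lower. RLE scaling gave 73 higher and 178 lower, no filter 105 and 182, and scaling without immunoglobulin, TCR and MHC class II genes 96 and 167. No gene called in naive spleen was called in the opposite direction under any of these settings. Of 113 named called genes, 46 kept their call under the settings other than leaving out a tolerant library, where they gave a value (Bcl11a and Cd8a had none from DESeq2). The cause of these changes was not tested.

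Whether the same replicate number marks the same mouse is not stated, and deviations of same-numbered libraries correlated at 0.0435 to 0.0479 over 7551 genes, under 0.1. Each library correlated best with its own number, which is a hint from the data and not from the design. A replicate block with the 6 compared libraries called 570 genes, 239 higher and 331 lower. By list, it called 11 of 14 B cell transcription factors and 11 of 16 NK and cytotoxic genes lower, against 7 and 4 with all libraries in the fit and no block. The 6 compared libraries without a block gave 121 genes higher and 275 lower, and 9 of the 16 NK and cytotoxic genes lower. Il2ra was not called with the block (adjusted p = 0.552), and its call was already lost with the 6 compared libraries and no block.

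Hbb-bs had a log2 fold change of -4.69 to 10.40 without 1 library. The difference of the contrasts ran from -0.28 to 9.29 for Gzma and from -0.11 to 6.13 for Ms4a1. The mitochondrial share differed by -0.139 to 0.740 percentage points, with the negative values without CD4+ replicate 3 (-0.139), CD45+CD4- replicate 1 (-0.0128) or replicate 2 (-0.0442). The ribosomal protein share differed by 0.0409 percentage points without CD4+ replicate 2 and by up to 2.83 without CD4+ replicate 1. Depth limits genes near 1 CPM, where 3 counts lie.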
